A study of Homo sapiens with 7 samples.

Results

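F-box proteins are the substrate-recognition subunits of SCF ubiquitin ligases. The F-box motif docks the protein to SKP1, which joins it to the cullin CUL1 and the RING protein RBX1, and the rest of the F-box protein binds the substrate that is to be ubiquitinated. Their genes are named by the substrate-binding part: FBXW for WD40 repeats, FBXL for leucine-rich repeats and FBXO for other or no recognised domains. Members whose symbol was FBXO, FBXL or FBXW followed by digits were taken, which gave 64 of the 20072 gene symbols in the files: 37 FBXO, 18 FBXL and 9 FBXW genes. F-box genes under other symbols, such as SKP2 and BTRC, are not among them and are given only for comparison.

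All libraries came from log-phase HCT116, a human colorectal carcinoma cell line grown in serum-free McCoy's 5A medium with added epidermal growth factor, insulin and transferrin. No group carried a genotype change, and the comparisons are between assays and not between conditions. Cells for polysome profiling were given cycloheximide, which holds ribosomes on mRNA, shortly before they were collected, so in any comparison with polysomes this treatment and the assay cannot be told apart. Transcription rate (TR) was measured by GRO-seq, in which nascent RNA is labelled by run-on transcription in isolated nuclei, with 2 libraries. mRNA abundance (RA) was measured by RNA-seq with 3 libraries, and translation activity (TA) by sequencing mRNA from the polysome fractions of a sucrose gradient with 2 libraries. All values are RPKM, read counts scaled to exon length and library size, and the libraries held 3391897 to 30805391 reads, with the GRO-seq libraries the smallest. As in the study, log2(RA/TR) of the mean RPKM is called the stability index, and log2(TA/RA) the translation index. RPKM are relative to the total of a library, so none of the values gives RNA per cell. Because each index compares 2 kinds of library, differences between the assays in what they capture and differences between RNA pools cannot be told apart. Of 8 colon epithelium markers, 7 reached 1 RPKM in RA, with KRT19 the highest at a mean of 977 RPKM and VIL1 under 1 RPKM. Of 13 markers of blood, fibroblast, endothelium, liver, muscle and nerve, 2 did (COL1A1 and DES), and the list summed to 12.6 to 17.9 RPKM per RNA-seq library.

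Most F-box genes were transcribed in these cells. A mean TR of at least 1 RPKM was found for 57 of the 64 genes, a mean RA of at least 1 RPKM for 51 and a mean TA of at least 1 RPKM for 49. The 49 genes that reached 1 RPKM in each parameter were 29 of 37 FBXO, 13 of 18 FBXL and 7 of 9 FBXW genes. Over the 20056 genes with values, 10825 reached 1 RPKM in each parameter and 14305 in at least 1, beside 49 and 57 of the 64 members. FBXL21 and FBXO39 were listed at 0 in all 7 libraries. FBXL21 is a transcribed unitary pseudogene in the GENCODE annotation, where its symbol is FBXL21P. The other 5 genes under 1 RPKM in every parameter were FBXL7, FBXO40, FBXO47, FBXW10 and FBXW12. FBXO40 is known as a muscle gene, and it had 16 and 13 reads in the GRO-seq libraries and none in the other 5.

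The promoters of the transcribed and the silent members are shown for a few genes because TR measures what leaves them. They are the 30 bases before the transcription start, from RefSeq on GRCh38.p14, with CG dinucleotides in capitals. FBXO7 and FBXW7 are examples of transcribed members, and the other 6 are the members under 1 RPKM in TR that have a RefSeq entry.
FBXO7 (chr22:32474781-32474810, plus strand): ccaggaggCGccctcaggagaggggCGggc
FBXW7 (chr4:152536093-152536122, minus strand): atCGgcaggCGcCGctctcctccCGcccct
FBXO40 (chr3:121593349-121593378, plus strand): atttctgttgaagttttctctcctttccct
FBXW10 (chr17:18744024-18744053, plus strand): atgtttccaaggaggtctgtacaaaaagcc
FBXW12 (chr3:48372189-48372218, plus strand): ggacctctgtggagaagccagcttggcaCG
FBXL7 (chr5:15500150-15500179, plus strand): taacaaaagtcCGgccCGCGggCGagctgc
FBXO39 (chr17:6776185-6776214, plus strand): cttggcatttagcttgggccagagcaaggc
FBXO47 (chr17:38967404-38967433, minus strand): aatattctagaggcCGCGgggaCGcctggt
The FBXO7 and FBXW7 stretches held 2 and 4 CG dinucleotides, those of FBXO40, FBXW10, FBXW12 and FBXO39 held 0, 0, 1 and 0, and those of FBXL7 and FBXO47 held 4 and 3. Over the whole window of 250 bases before to 50 after the start, 49 members had a RefSeq entry. The ratio of observed to expected CG, which is the CG count times the window length over the product of the C and G counts, was 0.925 for FBXO7, 0.825 for FBXW7, 0.306 for FBXO40, 0.0992 for FBXW10 and 0.297 for FBXW12. It was 0.990 for FBXL7, 0.709 for FBXO39 and 0.601 for FBXO47, so the members under 1 RPKM were found on both sides of 0.6. A ratio of at least 0.6 was found in 41 of 43 members with a TR of at least 1 RPKM (95.3%) and in 3 of 6 members under it. The same share was 78.5% of all genes in the files with a TR of at least 1 RPKM, 34.0% of those under it and 48.96% of all RefSeq promoters. The transcribed members with a lower ratio were FBXO28 (0.408) and FBXL22 (0.371). FBXW10 has a near-identical copy in the genome, so its reads are uncertain.

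The levels of the 49 genes that reached 1 RPKM in each parameter ranged from 2.89 to 54.1 RPKM in mean RA. The highest mean RA was that of FBXO2 at 54.1 ± 6.16 RPKM (SD, n = 3), followed by FBXO7 at 53.1 ± 3.91 and FBXW5 at 49.2 ± 2.83, and these neighbours did not differ beyond their spread. The highest FBXL member in RA was FBXL6, at 27.9 ± 5.84 RPKM. The lowest was FBXO4, at 2.89 ± 0.599 RPKM. In TR the order was another: FBXL6 was highest at 72.4 ± 4.23 RPKM (SD, n = 2), next to FBXO41 at 69.5 ± 3.83, and FBXO25 lowest at 1.88 ± 0.433. In TA, FBXO7 was highest at 52.0 ± 1.34 RPKM (n = 2). The median SD of the log2 values between replicates was 0.0981 in TR, 0.188 in RA and 0.212 in TA over these 49 genes. The largest were those of FBXO16 in TR (0.82), FBXL15 in RA (0.63) and FBXO5 in TA (0.94).

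**Figure D1:**
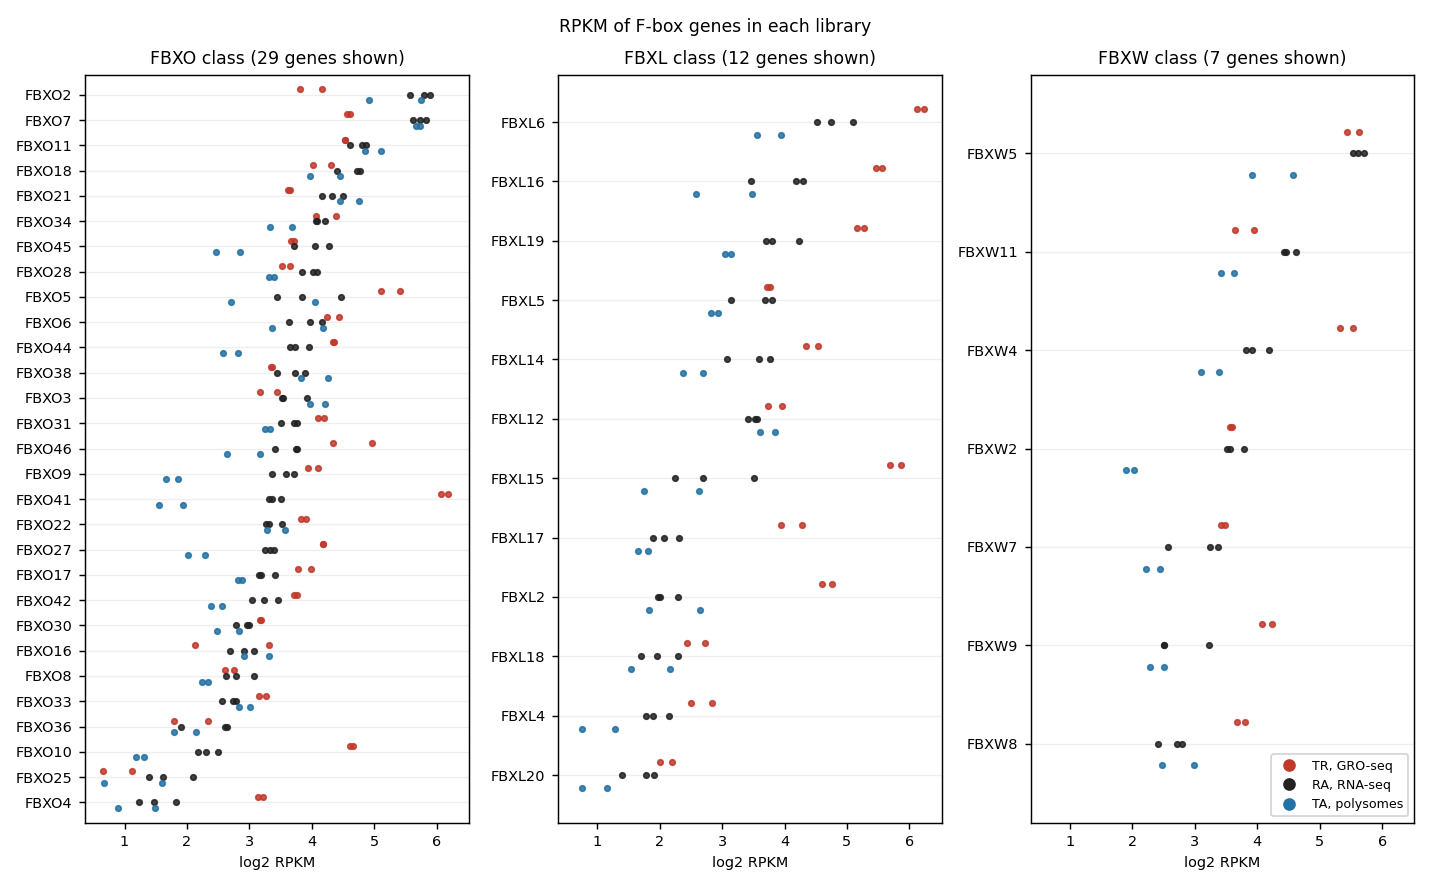
RPKM of 48 of the 49 F-box genes that reached 1 RPKM in each parameter, 1 panel for each class, with log2 RPKM on the x axis and genes ordered by mean RA. Each point is 1 library (red GRO-seq, black RNA-seq, blue polysome profiling), and FBXO41, FBXL15 and FBXL2 show the red points far to the right of the black ones.

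By class, the FBXL genes had the largest drop in median RPKM from GRO-seq to RNA-seq. Their median was 17.3 RPKM in TR, 11.3 in RA and 5.82 in TA. The FBXO genes had medians of 14.8, 12.5 and 7.60 RPKM, and the FBXW genes of 13.9, 12.3 and 6.74 RPKM. The medians over all 10825 genes of the same filter were 17.6, 14.6 and 11.4 RPKM, so by mean RPKM every class lay below the median gene in each parameter. In GRO-seq replicate 2 alone, the FBXL median of 19.4 RPKM lay above the 17.5 RPKM of all genes. In single libraries the class medians of TR ranged from 13.9 to 19.4 RPKM and those of TA from 5.65 to 7.92 RPKM, and all the TA medians were below all the TR medians.

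**Figure D2:**
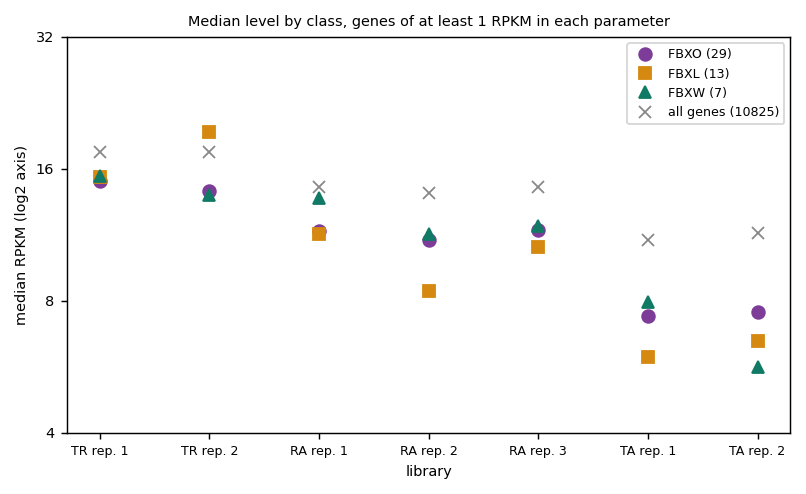
Median RPKM of the FBXO, FBXL and FBXW genes and of all genes of the same filter (1 RPKM or more in TR, RA and TA alike), in each of the 7 libraries, with the RPKM on a log2 axis and numbers of genes in the legend. The class medians fall from the GRO-seq to the polysome libraries, and those of FBXL are the lowest of the 3 classes in each RNA-seq library.

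The stability index sets the mRNA level of a gene against its transcription rate. Its median was -0.27 for FBXO, -0.94 for FBXL and -0.35 for FBXW genes, against -0.14 for all genes of the same filter. On the deposited scale all 13 FBXL genes lay below 0, as did 16 of 29 FBXO and 4 of 7 FBXW genes, beside 55.5% of all genes. The FBXL median was below the FBXO median by 0.67 on the log2 scale, and the difference was between -1.12 and -0.47 in the 6 pairs of an RNA-seq and a GRO-seq library, which share libraries and are no replicates. The FBXW median differed from the FBXO median by -0.08, with pairs from -0.57 to 0.22. Genes are not replicates, so no test was made between classes. Leaving out the 18 members whose annotated exons overlap those of another protein-coding gene moved the FBXO median to 0.16 and the difference between FBXL and FBXO to -1.10.

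Gene by gene, limma on log2(RPKM + 0.1) tested 57 members among 14305 genes, with Benjamini-Hochberg adjustment over all of them. The stability index was higher than 0 at an adjusted p under 0.05 in 4 members, FBXO2, FBXO7, FBXO21 and FBXW11, where 19.2% of all genes tested were called. It was lower in 30 members (52.6%), where 48% of all genes were called, so the members' share was near the background. The limma median was -0.51 over the members and -0.58 over all genes tested. The filter admitted genes through TR alone, so 8 of the 57 had to be low in RA or TA. In the 49 genes at 1 RPKM in each parameter, 4 were higher, where 24.7% of 10825 genes were called, and 22 lower (44.9%), beside 34.2%. Among the 57, the calls were 3 higher and 16 lower of 34 FBXO, 0 higher and 11 lower of 16 FBXL, and 1 higher and 3 lower of 7 FBXW genes. Among the 49, they were 3 higher and 11 lower of 29 FBXO and 0 higher and 8 lower of 13 FBXL genes, with FBXW unchanged. Centring each library on its median, which removes a shift of -0.67 between RA and TR, changed the split to 16 higher and 19 lower. Over the 14305 genes, centring gave 5066 higher and 4814 lower. The 16 were 13 FBXO and 3 FBXW genes, and no FBXL gene was called higher on either scale. With centred libraries the indices of FBXL5, FBXL12, FBXL18 and FBXL20 turned above 0 without a call. The lower calls that centring ended were those of FBXL4, FBXL14, FBXO5, FBXO17, FBXO22, FBXO27, FBXO31, FBXO33, FBXO44, FBXO46 and FBXW8. Without GRO-seq replicate 2, 2 of the 4 higher calls were made.

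FBXO2 had the highest stability index. FBXO2 binds high-mannose glycans on misfolded glycoproteins and is known best from neurons. It measured 17.9 and 14.1 RPKM in GRO-seq, 59.5, 47.4 and 55.6 RPKM in RNA-seq, and 30.3 and 53.8 RPKM in polysomes. All RNA-seq values lay above both GRO-seq values, while the polysome values overlapped the RNA-seq values. RA was 3.39-fold TR, with a limma log2 ratio of 1.76 ± 0.26 (SE, adjusted p = 0.000482). FBXO2 lies at chr1:11697075-11715842 (GRCh37, minus strand), and 3.6% of its annotated exon bases overlap those of FBXO44.

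FBXO7, which acts with PINK1 and parkin in the clearance of damaged mitochondria, came next. It measured 24.3 and 23.6 RPKM in GRO-seq, 49.1, 56.9 and 53.3 RPKM in RNA-seq, and 51.1 and 53.0 RPKM in polysomes. The replicates were close and RA did not overlap TR. RA was 2.22-fold TR (limma log2 ratio 1.14 ± 0.15, adjusted p = 0.000252).

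FBXW11, one of the β-TrCP proteins that bind phosphorylated β-catenin and IκB, had 15.4 and 12.4 RPKM in GRO-seq, 21.9, 21.5 and 24.7 RPKM in RNA-seq, and 10.6 and 12.4 RPKM in polysomes. RNA-seq stood above both other assays without overlap. Its mRNA was 1.63-fold its nascent RNA (limma log2 ratio 0.71 ± 0.18, adjusted p = 0.00794). FBXO21 had 12.6 and 12.3 RPKM in GRO-seq and 17.9 to 22.6 RPKM in RNA-seq, a ratio of 1.62 (limma adjusted p = 0.00919). The calls of FBXW11 and FBXO21 were lost without GRO-seq replicate 2, and those of FBXO2 and FBXO7 held under every setting tried. FBXO25 had an index of 0.82, above those of FBXW11 and FBXO21, but was not called (adjusted p = 0.0761 in limma), and neither was FBXO18, a DNA helicase now named FBH1 (0.47, adjusted p = 0.0831). FBXO25 rested on 13 and 30 reads in the GRO-seq libraries.

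At the other end, FBXO41 was transcribed at 66.8 and 72.2 RPKM, the second highest TR of all members, and held 11.4, 10.3 and 9.91 RPKM in RNA-seq and 3.82 and 2.94 RPKM in polysomes. FBXO41 is known as a neuronal F-box gene. Its assays did not overlap, and each step down was larger than the spread. RA was lower than TR 6.60-fold (limma log2 ratio -2.71 ± 0.18, adjusted p = 5.22e-06). FBXO41 lies at chr2:73481810-73511606 (GRCh37, minus strand), with no exon overlap with another protein-coding gene. FBXO10 fell from 24.5 and 25.3 RPKM in GRO-seq to 4.51 to 5.63 RPKM in RNA-seq (limma log2 ratio -2.29 ± 0.19, adjusted p = 1.87e-05), with 47.7% of its annotated exon bases shared with another protein-coding gene model. FBXO4 had 8.77 and 9.32 RPKM in GRO-seq and 2.35 to 3.53 RPKM in RNA-seq (limma adjusted p = 0.000864), and FBXO46 had an index of -1.04 (adjusted p = 0.00812).

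Among FBXL genes at 1 RPKM in each parameter, FBXL15, FBXL2 and FBXL17 were the lowest. FBXL15 had 58.5 and 51.4 RPKM in GRO-seq, 11.3, 4.75 and 6.45 RPKM in RNA-seq and 3.37 and 6.21 RPKM in polysomes. TR stood far above RA, and RA overlapped TA. Its stability index was -2.87 (limma log2 ratio -2.94 ± 0.39, adjusted p = 0.000237), and 29.3% of its annotated exon bases overlap PSD. FBXL2, which carries a CAAX lipidation signal at its C-terminus, had 24.2 and 27.1 RPKM in GRO-seq, 4.02, 4.90 and 3.91 RPKM in RNA-seq, and 6.27 and 3.54 RPKM in polysomes. Its index was -2.58 (limma adjusted p = 6.52e-05). FBXL17 followed with -2.02 (limma adjusted p = 8.97e-05). Among the highest FBXL genes were FBXL5 (-0.18) and FBXL12 (-0.36), and limma called neither.

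The FBXW genes spread over both sides. FBXW4 had 40.3 and 46.5 RPKM in GRO-seq and 15.1, 18.2 and 14.2 RPKM in RNA-seq (index -1.46, limma adjusted p = 0.000216). FBXW9 (-1.37, adjusted p = 0.00171 in limma) and FBXW8 (-1.09, adjusted p = 0.00299) were lower too. FBXW7, the receptor for phosphorylated cyclin E, MYC and NOTCH, had 10.7 and 11.1 RPKM in GRO-seq and 5.92, 10.3 and 9.41 RPKM in RNA-seq, an index of -0.35 (limma adjusted p = 0.223). RNA-seq replicate 1 of FBXW7 stood below the other 2. FBXW5 (0.08) and FBXW2 (0.05) had overlapping GRO-seq and RNA-seq values.

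**Figure D3:**
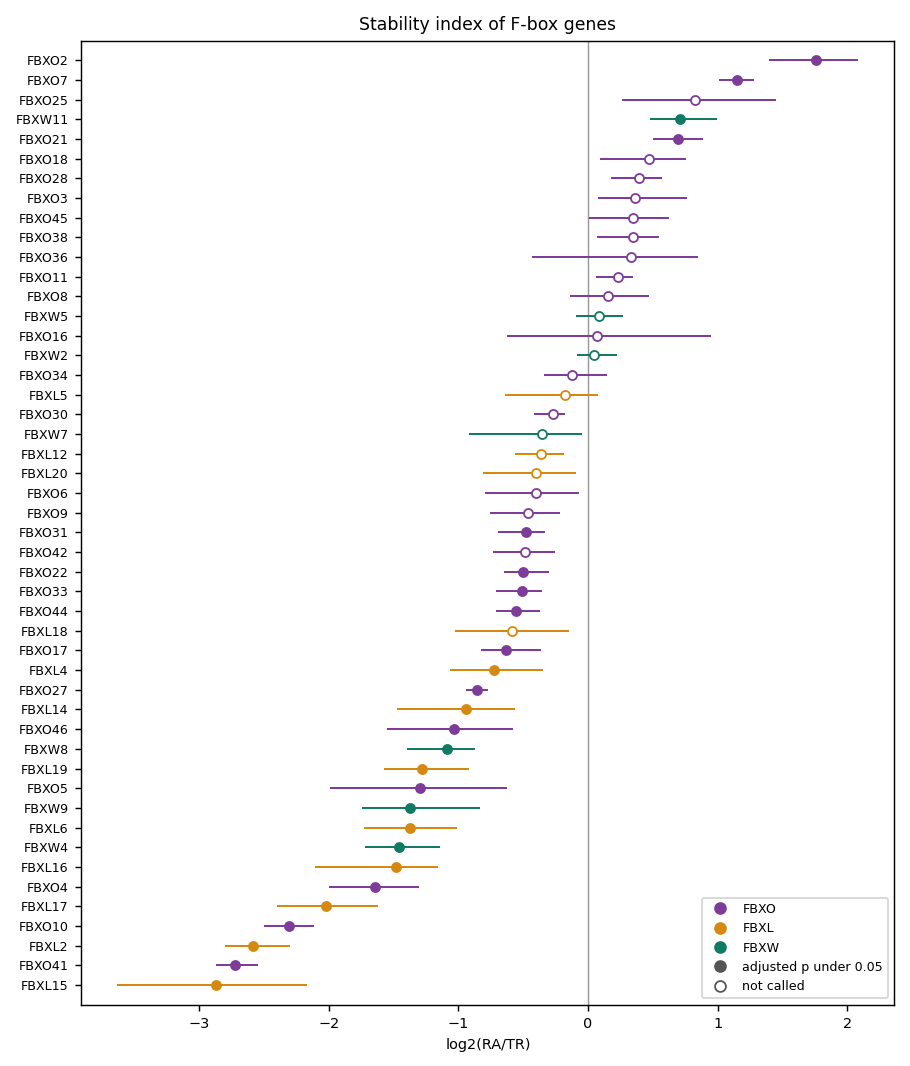
Stability index, log2(RA/TR), of 48 of the 49 F-box genes that reached 1 RPKM in each parameter, ordered by value. Points give the index of the means (filled where limma called the gene at an adjusted p under 0.05), lines run from the lowest to the highest of the 6 pairs of an RNA-seq and a GRO-seq library, and all FBXL points lie left of 0.

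Another 6 members passed 1 RPKM through TR alone and 2 (FBXO48 and FBXL8) through TR and RA. All 8 were called lower in the stability index, which the filter made likely, so the calls are a description. FBXL22 had 15.7 and 23.0 RPKM in GRO-seq, from 81 and 197 reads, against 10, 1 and 0 reads in the RNA-seq libraries and 0 in both polysome libraries. FBXO43, an inhibitor of the anaphase-promoting complex known from meiosis, had 2.20 and 2.76 RPKM in GRO-seq and 0.0265 to 0.0436 RPKM in RNA-seq, from 2 to 3 reads in each. FBXO24, FBXL13, FBXO15 and FBXO32 had means of 0.31 to 0.591 RPKM in RNA-seq. FBXO48 went from 8.70 and 10.5 RPKM in GRO-seq to 1.44, 0.622 and 1.20 RPKM in RNA-seq and 0.120 and 0.296 RPKM in polysomes. The drop of FBXO48 from RNA-seq to polysomes was called as well (limma log2 ratio -1.94 ± 0.39, adjusted p = 0.00898).

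The translation index sets the polysome level of an mRNA against its abundance. Its median was -0.41 for FBXO, -0.69 for FBXL and -0.76 for FBXW genes, against -0.30 for all genes of the same filter. The FBXL median differed from that of FBXO by -0.28, with -0.30 to -0.01 in the 6 pairs of a polysome and an RNA-seq library. The FBXW median differed by -0.35, with -0.57 to -0.36 in the pairs, and leaving out 1 library moved the difference from -0.60 (without RNA-seq replicate 1) to -0.15 (without polysome profiling replicate 2). No member was called higher by limma, where 6.66% of all genes tested were called, and none had an unadjusted p under 0.05 in that direction. A lower index was called in 20 of 57 members (35.1%), where 29.2% of all genes were called. These were 10 of 34 FBXO, 6 of 16 FBXL and 4 of 7 FBXW genes. In the 49 genes at 1 RPKM in each parameter it was 18 (36.7%), beside 28.3%, and 8.67% of those genes were called higher. Centring the libraries, a shift of -0.50 between TA and RA, gave 6 higher (FBXL12, FBXO3, FBXO11, FBXO21, FBXO33 and FBXO38) and 7 lower (FBXO9, FBXO27, FBXO41, FBXO45, FBXO48, FBXW2 and FBXW5), so the lower calls of the other members named here held only on the deposited scale. Over all 14305 genes tested, centring gave 2713 higher and 1404 lower. The lower count depended on single libraries, for the members and for all genes alike. Without polysome profiling replicate 1, 9 members were called lower, and 1806 of all genes instead of 4173. Without RNA-seq replicate 3 it was 13 members, and 2805 of all genes. The calls of FBXO9, FBXO27, FBXO41, FBXO45, FBXW2 and FBXW5 held under every setting tried.

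FBXO9, the F-box protein that targets TEL2 and TTI1, had the lowest translation index of the genes at 1 RPKM in each parameter. It measured 13.1, 12.1 and 10.2 RPKM in RNA-seq and 3.62 and 3.19 RPKM in polysomes, with 17.2 and 15.4 RPKM in GRO-seq. The polysome values lay far below all RNA-seq values. TA was lower than RA 3.47-fold (limma log2 ratio -1.76 ± 0.19, adjusted p = 0.00258), while the stability index of -0.46 was not called (adjusted p = 0.0606).

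FBXW2 came next. It had 11.8 and 12.0 RPKM in GRO-seq, 13.7, 11.4 and 11.9 RPKM in RNA-seq, and 3.74 and 4.06 RPKM in polysomes. Nascent RNA and mRNA overlapped, and the polysome level stood apart. TA was lower than RA 3.16-fold (limma log2 ratio -1.63 ± 0.18, adjusted p = 0.00259).

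FBXW5, which with DDB1 also serves cullin 4 ligases, had 49.4 and 43.4 RPKM in GRO-seq, 48.99, 46.5 and 52.1 RPKM in RNA-seq and 15.0 and 23.9 RPKM in polysomes. TR and RA again overlapped, with TA below both. Its limma log2 ratio of TA to RA was -1.37 ± 0.22 (adjusted p = 0.00432). FBXO45, a synaptic F-box protein that pairs with the ligase MYCBP2, had 13.2, 16.6 and 19.4 RPKM in RNA-seq and 5.50 and 7.19 RPKM in polysomes (-1.35 ± 0.22, limma adjusted p = 0.00467). FBXO41 was low in this index too (-1.62 ± 0.18, limma adjusted p = 0.00264). In FBXW11 the 1.63-fold excess of mRNA over nascent RNA was followed by a polysome level 1.97-fold under the mRNA (limma adjusted p = 0.0065), and in FBXW4 the index was -0.73 (adjusted p = 0.0206). FBXW7 had -0.76 (adjusted p = 0.0658), FBXW9 -0.39 and FBXW8 0.10, and these 3 were not called. Among FBXL genes at 1 RPKM in each parameter, FBXL6 was lowest at -1.04 (limma adjusted p = 0.0102). It had 34.3, 22.8 and 26.7 RPKM in RNA-seq and 11.8 and 15.4 RPKM in polysomes. Of its annotated exon bases, 36.98% overlap SLC52A2 and another protein-coding gene model, so its counts may hold reads of those. FBXL14, which binds SNAIL-family factors, had -0.96 (limma adjusted p = 0.0213), and FBXL16 -0.93 with overlapping RNA-seq and polysome values.

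At the upper end, FBXO3 had 15.2, 11.5 and 11.6 RPKM in RNA-seq and 18.5 and 15.7 RPKM in polysomes. The assays did not overlap, but the index of 0.42 was not called (limma adjusted p = 0.133). FBXO38 (0.36), FBXO21 (0.28), FBXO33 (0.23) and FBXO16 (0.23) followed among FBXO genes, and FBXL12 (0.24), FBXL2 (0.20) and FBXL18 (-0.12) were the highest FBXL genes. FBXO7, with 49.1 to 56.9 RPKM in RNA-seq and 51.1 and 53.0 RPKM in polysomes, had an index of -0.03.

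**Figure D4:**
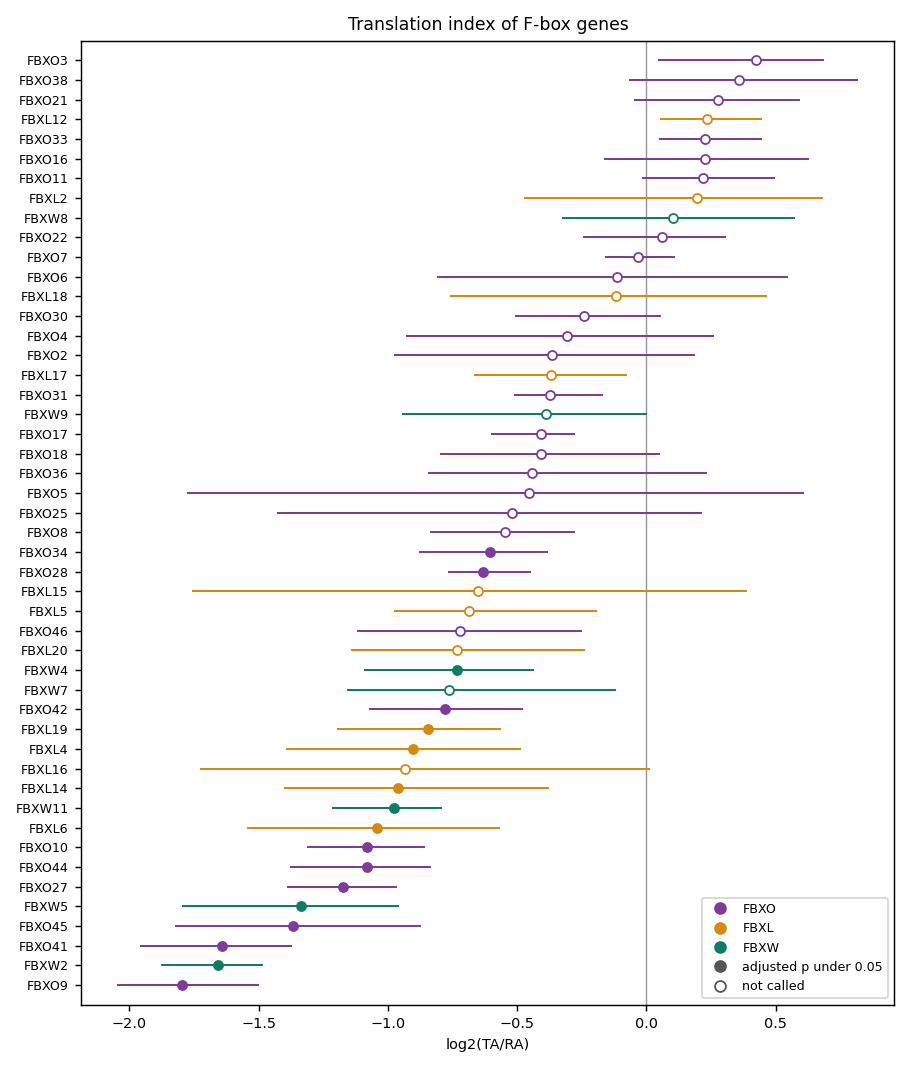
Translation index, log2(TA/RA), of the same 48 F-box genes, ordered by value. Points give the index of the means (filled where limma called the gene at an adjusted p under 0.05), lines run from the lowest to the highest of the 6 pairs of a polysome and an RNA-seq library, and the filled points all lie left of 0, with FBXO9 and FBXW2 lowest.

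From nascent RNA to polysomes, 5 members were higher and 38 lower of 57, where 17% and 57.5% of all genes tested were called. Among the 49 genes at 1 RPKM in each parameter it was 5 and 30, beside 21.9% and 45.7%. The 5 were FBXO2, FBXO3, FBXO7, FBXO21 and FBXO38, all of the FBXO class, and 3 were called without GRO-seq replicate 1 or polysome profiling replicate 1. For FBXL it was 0 higher and 14 lower of 16, and for FBXW 0 higher and 6 lower of 7. At 1 RPKM in each parameter it was 0 higher and 11 lower of 13 FBXL genes, and the same 6 of 7 FBXW genes. FBXO21 went from 12.6 and 12.3 RPKM in GRO-seq to 27.0 and 21.9 RPKM in polysomes (limma log2 ratio 0.96 ± 0.19, adjusted p = 0.00222). FBXO41 had the lowest ratio of the 49 genes, -4.33 ± 0.20 (adjusted p = 8.39e-07 in limma). With centred libraries the split was 17 higher and 21 lower, with 1 FBXL gene (FBXL12) and 1 FBXW gene (FBXW11) among the higher. Over all 14305 genes tested, it was then 5436 higher and 5044 lower.

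Among the cell cycle and DNA damage members (FBXW7, FBXW11, FBXO4, FBXO5, FBXO11, FBXO18, FBXO22, FBXO31 and FBXO43), the stability index was higher in 1 of 9, lower in 5 and not called in 3, beside 19.2% and 48% of all genes tested, and the translation index was lower in 1, beside 29.2%. Of the 5 lower calls, FBXO43 passed the filter through TR alone, and those of FBXO22 and FBXO31 held in 10 and 9 of 17 settings. FBXO5, known as EMI1, inhibits the anaphase-promoting complex before mitosis. It had 34.6 and 42.8 RPKM in GRO-seq, 22.2, 10.9 and 14.3 RPKM in RNA-seq, and 6.51 and 16.5 RPKM in polysomes. Its mRNA lay below its nascent RNA (limma log2 ratio -1.34 ± 0.42, adjusted p = 0.0215), while RA and TA overlapped widely, and the call was lost with centred libraries and with RNA-seq replicate 3 or either GRO-seq replicate left out.

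CCNF, the cyclin F gene and an F-box gene under another symbol, had a like spread between replicates, with 34.0, 7.39 and 17.3 RPKM in RNA-seq and 9.15 and 17.7 RPKM in polysomes. SKP2, the receptor for p27, had 16.2, 5.70 and 8.40 RPKM in RNA-seq and 2.001 and 3.61 RPKM in polysomes. In FBXO5, CCNF and SKP2 alike, RNA-seq replicate 1 was the highest of the 3 and polysome replicate 1 the lower of the 2. The pattern was not particular to them, and FBXL6, FBXL14, FBXL15, FBXL16 and FBXO2 had it too. Over 10825 genes, the differences between replicates 1 and 2 in TA and in RA correlated at -0.562.

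The 5 members listed here under glycoprotein binding sit in 2 small clusters, and whether each of them binds glycoproteins was not tested. FBXO2, FBXO44 and FBXO6 lie side by side on chromosome 1, at chr1:11697075-11715842, chr1:11714432-11723384 and chr1:11724257-11734411, and FBXO17 and FBXO27 on chromosome 19, at chr19:39432041-39466382 and chr19:39481354-39523425 (GRCh37). The stability index was higher in 1 of the 5 (FBXO2), lower in 3 (FBXO17, FBXO27 and FBXO44, none of which was called with centred libraries) and not called in FBXO6, beside 19.2% and 48% of all genes tested. FBXO44 had 20.1 and 20.4 RPKM in GRO-seq, 13.3, 15.5 and 12.6 RPKM in RNA-seq and 7.03 and 5.99 RPKM in polysomes, so that it stood above its neighbour FBXO2 in each GRO-seq library and below it in each RNA-seq library. FBXO27 had 18.1 and 18.2 RPKM in GRO-seq, 9.54, 10.6 and 10.1 RPKM in RNA-seq and 4.04 and 4.88 RPKM in polysomes. FBXO44 and FBXO27 were the 2 of the 5 called lower in translation, at -1.07 ± 0.18 and -1.16 ± 0.18 (limma adjusted p = 0.00495 and 0.00403). FBXO6 shares 50.5% of its annotated exon bases with MAD2L2, and its counts may hold reads of that gene.

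FBXL5, the iron-sensing receptor of IRP2, had 13.6 and 13.2 RPKM in GRO-seq, 8.79, 13.9 and 12.9 RPKM in RNA-seq and 7.68 and 7.07 RPKM in polysomes, and neither index was called. FBXL20, the other member ending in CAAX, had indices of -0.40 and -0.73, neither called. FBXL4, a mitochondrial protein that restrains mitophagy, had 7.12 and 5.66 RPKM in GRO-seq, 3.43 to 4.43 RPKM in RNA-seq and 1.69 and 2.44 RPKM in polysomes, and both indices were called lower in limma (adjusted p = 0.0356 and 0.0288), though not with centred libraries. The stability call was also lost without either GRO-seq replicate or without RNA-seq replicate 1 or 2. The translation call was also lost without either GRO-seq replicate, RNA-seq replicate 3 or polysome profiling replicate 1.

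Of 11 members known mainly from muscle, nerve, germ or stem cells, 6 reached 1 RPKM, FBXL16, FBXO15, FBXO24, FBXO32, FBXO41 and FBXO43, and all 6 were called lower in the stability index, beside 48% of all genes tested. The list was chosen with earlier results known and does not hold FBXO2 and FBXO45, also known from neurons, of which the first was called higher and the second was not called. For FBXO15, FBXO24, FBXO32 and FBXO43 the filter was met through TR alone. FBXL16 and FBXO41 were transcribed at 44.02 to 72.2 RPKM in each GRO-seq library and reached 1 RPKM in each parameter. FBXO32, the muscle gene atrogin-1, had 4.24 and 4.88 RPKM in GRO-seq and 0.490 to 0.780 RPKM in RNA-seq.

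Among the partners of the F-box proteins, higher calls in stability outnumbered lower ones. Over 32 genes of the SCF core, its E2 enzymes, neddylation, and CAND exchange and the COP9 signalosome, the stability index was higher in 16, lower in 3 and not called in 13, with a median of 0.46, beside 19.2% and 48% of all genes tested. Of the 31 at 1 RPKM in each parameter, 16 were higher and 2 lower, beside 24.7% and 34.2% of all genes of that filter. SKP1, the adaptor that every F-box protein binds, had 18.7 and 15.7 RPKM in GRO-seq and 64.4, 55.0 and 50.5 RPKM in RNA-seq (limma log2 ratio 1.71 ± 0.17, adjusted p = 5.55e-05), and CUL1 a log2 ratio of 0.54 ± 0.17 (adjusted p = 0.022). RBX1 was not called (0.31 ± 0.23, adjusted p = 0.276). The translation index of the 32 genes was higher in 2, lower in 13 and not called in 17, with a median of -0.45, beside 6.66% and 29.2% of all genes tested. Of 9 further F-box genes under other symbols, 3 were lower in each index and none higher. The 45 USP deubiquitinase genes tested had 8 higher and 19 lower in stability, and 1 higher and 20 lower (44.4%) in translation. Both are read beside the same 19.2% and 48% of all genes in stability, and 6.66% and 29.2% in translation. Of the 41 USP genes at 1 RPKM in each parameter, 8 were higher and 15 lower in stability, beside 24.7% and 34.2%.

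The translation index was also set against the sequence before the coding start. In the canonical GENCODE transcripts, 20 of the 49 genes held at least 1 ATG, in any frame, in the sequence before the start codon, and 29 held none. The median translation index was -0.81 in the 20 and -0.37 in the 29. An index above 0 was found in 2 of the 20 (FBXO11 and FBXO22) and in 8 of the 29. Of the 6 members whose lower call held under every setting, FBXO9 and FBXW5 held 2 upstream ATGs each, FBXO41, FBXO45 and FBXW2 held 1 each, and FBXO27 held none. Over the 49 genes Spearman's rho between the number of ATGs and the index was -0.505 and Pearson's r -0.361, and rho was -0.485 to -0.241 in the 6 pairs of a polysome and an RNA-seq library. Genes share libraries and are not independent, so no p is given. The relation was not particular to these genes: over 10155 genes rho was -0.414, with a median of -0.68 with and -0.04 without an upstream ATG. Against the stability index, the number of ATGs had a Spearman's rho of -0.265 and a Pearson's r of -0.215 over the 49 genes. The share of noncoding bases in the counted exons ranged from 9.95% to 87.4%. It went with neither index as closely as the number of ATGs did (Spearman's rho -0.224 for translation and 0.0308 for stability). The transcripts expressed in HCT116 may differ from the canonical ones, which was not tested.

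**Figure D5:**
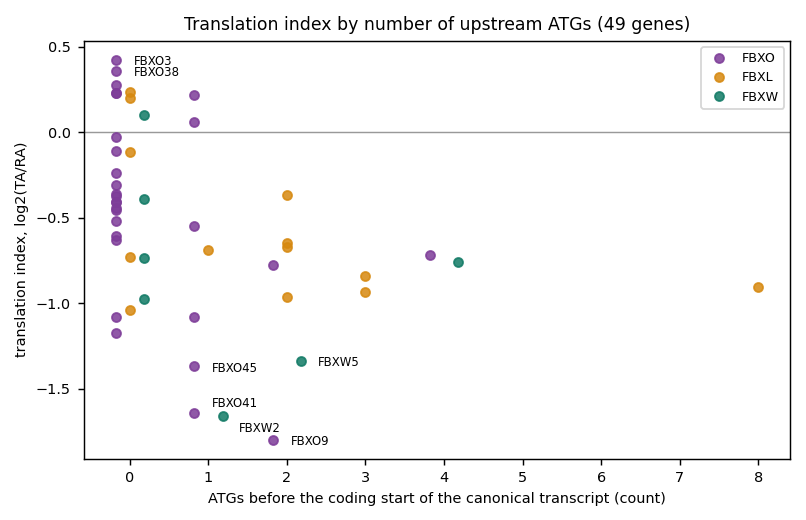
Translation index, log2(TA/RA), of the 49 F-box genes against the number of ATGs before the coding start of the canonical transcript, with classes set slightly apart along the x axis. The genes without an upstream ATG spread from -1.17 to 0.42, and those with at least 1 lie below 0 except FBXO11 and FBXO22.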

How the data were processed

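Log-phase HCT116 cells were measured by GRO-seq (2 libraries), RNA-seq (3) and polysome profiling (2). Per the labels and the study's methods, the authors sequenced on an Illumina HiSeq2000, aligned reads to hg19 with TopHat, counted exons with HTSeq and deposited RPKM values. Tool versions, annotation, strand setting and counting mode are not given in the sources used here, and the library kit named does not mark strand, so reads of overlapping genes cannot be told apart. The RPKM fell on whole reads (100% of values above 0 within 0.001 of a whole number), from which library sizes were worked out, and 99.8% of values gave reads.

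limma 3.58.1 (R 4.3.3, two-sided, trended prior variance) was run on log2(RPKM + 0.1) of all 7 libraries and all genes whose mean reached 1 RPKM in TR, RA or TA. Calls were made at a Benjamini-Hochberg adjusted p under 0.05. Fold changes on this scale understate those of low genes. In simulated data with 192 genes changed by 3 on the log2 scale among 12203, all 192 were called, with 10 unchanged ones. The simulation covered RA against TR only, with a replicate SD of 0.4 on the log2 scale. It does not show how smaller changes or the other ratios are called. Replicates are numbered in the labels, and p-values measure the spread between these libraries only. Promoters were matched by symbol in RefSeq on GRCh38.p14 and exons in GENCODE 44 lifted to GRCh37 (62 members by symbol, 2 by an older one). Exon overlap was taken over all annotated exons of a gene, which can exceed the counted ones (3375 against 1799 bases for FBXL6). Shared bases may therefore lie outside the counted exons. Alternatives covered the offset, filter, centring, prior, a replicate block and each library left out. Named genes were all FBXW genes, the 5 highest and lowest FBXO and 3 highest and lowest FBXL genes per index, and role lists. The members and lists were chosen with earlier results of these data known. The values of 1 member are not reported here, though it stays in the counts.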

Additional observations from a re-analysis of the deposited data

How the results depend on the processing

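Of 34 stability calls among the members, 20 held under every setting, and of 20 translation calls 6 did. Centring each library on its median gave 16 members higher and 19 lower in stability, 6 and 7 in translation, and 17 and 21 in the polysome to nascent ratio. Over all genes it gave 5066 higher and 4814 lower in stability, 2713 higher and 1404 lower in translation, and 5436 higher and 5044 lower in the ratio. Among members called on either scale, stability then turned above 0 for FBXO17 (0.046), FBXO22 (0.17), FBXO31 (0.19), FBXO33 (0.17), FBXO34 (0.56) and FBXO44 (0.11). Another 10 members, called on neither scale, changed sign with centring, FBXL5, FBXL12, FBXL18 and FBXL20 among them. Asking for 1 RPKM in each parameter gave 3656 genes lower in stability and 4935 lower in the ratio, from fewer genes tested. Of the members not called, 14 in stability and 20 in translation changed sign under some setting.

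Leaving out 1 library gave 2 to 5 members higher in stability, 9 to 24 lower in translation and 3 to 6 higher in the ratio. Over all genes it gave 200 to 1030 higher and 1806 to 4225 lower in translation. The FBXO medians ranged from -0.38 to -0.21 in stability and from -0.50 to -0.37 in translation, the FBXW translation median from -0.97 to -0.62, and its difference from FBXO from -0.60 to -0.15. The lower translation count was smallest without polysome profiling replicate 1.

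Including members above 0 in each parameter gave stability medians of -0.47, -1.28 and -0.72 for FBXO, FBXL and FBXW. Subtracting the median of all genes gave -0.12 for FBXO in stability, and -0.11, -0.39 and -0.46 for FBXO, FBXL and FBXW in translation. Without members overlapped by another gene the FBXO medians were 0.16 and -0.44, and the FBXL and FBXW stability medians differed from it by -1.10 and -0.51. With an offset of 1, translation medians were -0.36 for FBXO and -0.68 for FBXW. The causes were not tested.

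Replicate numbers were not shown to pair the samples, and whether the polysome numbers are crossed was not settled: deviations of same-numbered libraries correlated at 0.149 (RA and TR), -0.562 (TA and RA) and 0.0200 (TA and TR) over 10825 genes. With the replicate number as a block, 7 members were lower in translation and 3 higher and 23 lower in stability, 109 and 1387 of all genes were higher and lower in translation, and the FBXO translation median was -0.44. With the polysome numbers crossed, an alternative chosen after seeing the data, 16 members were lower in translation. Depth limits genes with few GRO-seq reads, such as FBXO25.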
